A study of Homo sapiens with 12 samples.

Results

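The 10 genes described here encode alternative or complex-specific subunits of the SWI/SNF chromatin remodeling complexes. They are the AT-rich interaction domain subunits ARID1A, ARID1B and ARID2, the double-PHD-finger paralogs DPF1, DPF2 and DPF3, and PBRM1, BRD7, BRD9 and PHF10. They were chosen by name, with ARID1A as the target of the hairpin and the other 9 as its paralogs or as subunits that take alternative places, and all 10 were found among the 43769 genes of the count table. RNA-sequencing was performed on SK-N-DZ, an established human neuroblastoma cell line, in 4 groups of 3 libraries. All 12 libraries came from SK-N-DZ cells made to carry a doxycycline-inducible hairpin against ARID1A in the lentiviral vector Tet-pLKO-puro, and such lines were grown as single clones under puromycin. Control cells (C) received neither agent, the D group received doxycycline for 4 days, the I group received interferon gamma (IFNγ) for 24 h, and the DI group received both. The labels give the genotype of the groups without doxycycline as WT and that of the groups with it as shARID1A. No group received doxycycline without the hairpin, so the antibiotic and the hairpin cannot be told apart, and the labels do not say which of the designed hairpins was used. The labels also do not say whether replicates were separate cultures, so the p-values below measure only the spread between these libraries, which may be technical.

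SWI/SNF complexes use the energy of ATP to move or evict nucleosomes and exist in several forms. Canonical BAF holds either ARID1A or ARID1B together with one of the DPF proteins, PBAF holds ARID2, PBRM1, BRD7 and PHF10, and the noncanonical form holds BRD9 and lacks an ARID subunit. During neuronal differentiation PHF10 and DPF2 give way to DPF1 and DPF3 in the neuronal complex, while the actin-related subunit ACTL6A gives way to ACTL6B. ARID1A lies in the part of chromosome arm 1p that is often lost in neuroblastoma.

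Promoter windows from RefSeq (GRCh38.p14), each from 250 bases before to 50 after an annotated start, were matched by symbol for 9 of the 10 genes, with 13 windows in all. They are shown for ARID1A, for its paralog ARID1B and for DPF1, the genes whose levels differed most between groups, with CG dinucleotides in capitals and the gene's own strand read 5′ to 3′. The ARID1A window (chr1:26695765-26696064, plus strand) held 33 CG dinucleotides, the ARID1B window (chr6:156777128-156777427, plus strand) held 39 and the DPF1 window (chr19:38229646-38229945, minus strand) held 36, against a median of 14 over 35116 promoter windows of the same length. A second ARID1B window held 5.
ARID1A: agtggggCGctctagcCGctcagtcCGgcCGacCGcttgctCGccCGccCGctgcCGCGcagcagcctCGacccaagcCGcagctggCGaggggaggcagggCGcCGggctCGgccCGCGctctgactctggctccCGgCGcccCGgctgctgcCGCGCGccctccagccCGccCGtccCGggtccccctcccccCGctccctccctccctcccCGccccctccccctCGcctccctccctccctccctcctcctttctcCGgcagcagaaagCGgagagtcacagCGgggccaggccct
ARID1B: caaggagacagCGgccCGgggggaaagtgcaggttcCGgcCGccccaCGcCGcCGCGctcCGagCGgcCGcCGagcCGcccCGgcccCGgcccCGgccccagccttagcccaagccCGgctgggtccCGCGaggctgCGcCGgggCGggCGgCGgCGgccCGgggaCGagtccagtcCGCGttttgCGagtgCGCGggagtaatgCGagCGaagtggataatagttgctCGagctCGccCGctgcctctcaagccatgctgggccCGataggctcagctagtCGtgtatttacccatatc
DPF1: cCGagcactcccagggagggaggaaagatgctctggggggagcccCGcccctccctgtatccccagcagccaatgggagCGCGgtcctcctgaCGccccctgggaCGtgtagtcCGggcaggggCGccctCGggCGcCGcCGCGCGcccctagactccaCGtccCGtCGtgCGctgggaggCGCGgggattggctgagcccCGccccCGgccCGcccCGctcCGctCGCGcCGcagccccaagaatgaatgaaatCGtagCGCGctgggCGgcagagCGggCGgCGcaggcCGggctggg
None of the 13 windows held, on either strand, the core of the interferon-stimulated response element (found in 3.57% of all windows), the gamma-activated site TTCNNNGAA (7.66%), the cyclic AMP element TGACGTCA (1.85%) or the amino acid response letters TGATGNAA (3.62%). The E-box CACGTG, present in 7.26% of all windows, was found in 1 window of PBRM1.

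Library totals ran from 16469832 to 21790869 counts, at which a floor of 3 counts equals 0.135 to 0.187 CPM (counts scaled to a common library size by TMM). Of the 10 genes, 9 passed the filter on low counts and were tested among 15828 genes. DPF3 did not pass. The IFNγ check genes IRF1, GBP1 and TAP1 were higher in I than in C (edgeR adjusted p under 0.05), and CXCL10 was not tested because its counts were too low. Neuroblastoma markers summed to 4549 to 5927 CPM per library, while 5 leukocyte markers summed to at most 1.5 CPM and 3 endothelial markers to at most 2.95. The 6 fibroblast markers summed to 45.5 to 72.7 CPM in C and to 71.7 to 121.6 CPM in I, while with doxycycline the sums were 33.0 to 71.8 CPM in D and 57.6 to 100.7 CPM in DI, and 1 of them, COL1A2, was higher over both IFNγ groups (edgeR adjusted p = 0.0466). Their part in the results with IFNγ was not tested. Doxycycline groups also differed in mitochondrially encoded mRNAs, whose 13 genes summed to 34435 to 51143 CPM in C, 30547 to 46091 in I, 8242 to 12597 in D and 7534 to 25601 in DI, with 10 of 13 lower over both doxycycline groups (edgeR adjusted p under 0.05). The part of this difference in the results below was not tested.

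All but DPF3 were well expressed in control cells. The mean level per kilobase of the longest coding transcript was highest for DPF2 (44.7 CPM per kb), followed by PHF10 (31.5), BRD9 (26.4), BRD7 (23.0), ARID1A (21.3), DPF1 (15.7), PBRM1 (15.7), ARID1B (12.3) and ARID2 (11.2). DPF3 stood at 0.055 CPM per kb. The order depends on the length used, since with all annotated exons merged PHF10 came first and BRD9 moved from place 3 to place 8. The plot of levels by library shows each gene on its own scale.

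**Figure D1:**
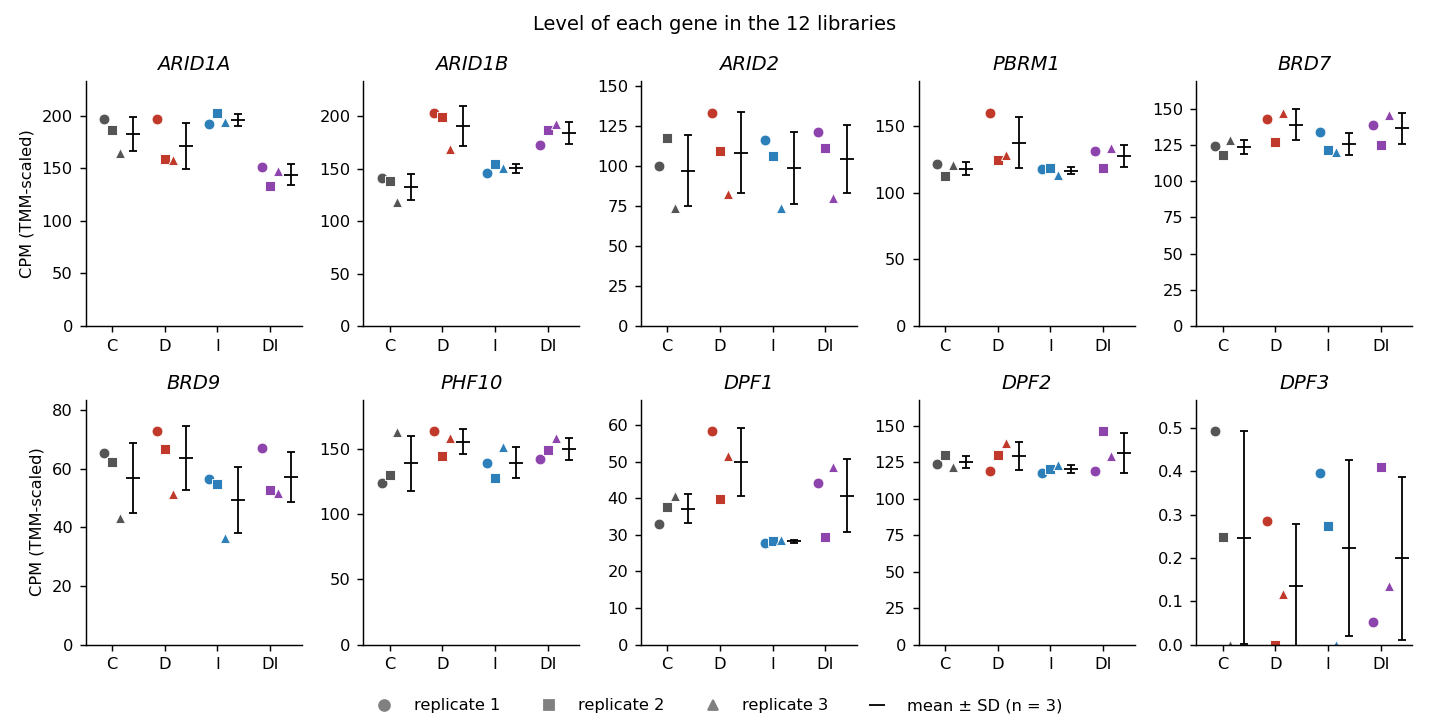
Level of each of the 10 genes in CPM (vertical axes, each from 0) in the 12 libraries, by group, with replicate numbers as marker shapes and the mean ± SD (n = 3) as a black bar, cut at 0 for DPF3. ARID1B sat between 118 and 141 CPM in C and between 169 and 203 in D, while DPF3 stayed under 0.5 CPM everywhere.

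ARID1A (ENSG00000117713, GRCh38 chromosome 1, 26693236 to 26782110, plus strand) is the gene the hairpin targets and encodes the DNA-binding ARID subunit of canonical BAF. Its mRNA was at 165 to 197 CPM in C and 158 to 197 CPM in D, ranges that overlap. The overlap came from D replicate 1 at 197 CPM, while D replicates 2 and 3, at 159 and 158, lay below every C library. With IFNγ it was at 192 to 203 CPM in I and 133 to 151 CPM in DI, so that every DI library lay below every I library, as was the case for 8.41% of all tested genes. The log2 fold change was −0.09 in D vs C (SE 0.11, edgeR adjusted p = 0.788) and −0.44 in DI vs I (SE 0.11, edgeR adjusted p = 0.115). In DI vs I no gene of the 9 passed the test, against 0.67% of all tested genes, of which 16 were higher and 90 lower (54 and 65 when scaled by library size alone). At an unadjusted p under 0.05 there were 3, ARID1A, ARID1B and DPF1, where 12.2% of all tested genes were under it. With the replicate number as a block, which uses the pairing of same-numbered libraries, ARID1A passed in DI vs I (edgeR adjusted p = 0.0111, where 10.5% of all genes passed), and DESeq2 also called it (adjusted p = 0.00453, where 4.01% passed).

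Over both doxycycline groups, with the mean of D and DI set against the mean of C and I, ARID1A was 0.27 lower on the log2 scale, a fold of 0.830 (log2 fold change −0.27, SE 0.077, edgeR adjusted p = 0.0606), which did not pass. With the replicate block the adjusted p was 0.00858 (edgeR), where 29% of all tested genes passed. Without D replicate 1 it was 0.0334 (edgeR) at a log2 fold change of −0.33, where 4.34% passed. In D replicate 1 ARID1A was at 197 CPM, equal to the same-numbered control at 197, while the other D libraries were at 159 and 158 CPM beside controls at 186 and 165. The RNA assay counts reads over the whole gene and does not measure protein. An antisense gene, AL512408.1, overlaps 382 bases of ARID1A exons and had 148 counts over all libraries beside 39637 for ARID1A.

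ARID1B (ENSG00000049618, chromosome 6, 156776020 to 157210779, plus strand), the paralog that takes the place of ARID1A in canonical BAF, was higher with doxycycline. The 3 C libraries had 141, 138 and 118 CPM for replicates 1 to 3, and the 3 D libraries had 203, 200 and 169. The I libraries had 146, 154 and 151 CPM, and the DI libraries had 173, 188 and 193. Every library with doxycycline was above every library without it, as was the case for 2.86% of all tested genes over the 6 libraries a side and for 10.1% in D vs C alone. Every I library was also above every C library, which was the case for 8.84% of all tested genes, at a log2 fold change of 0.18 (SE 0.10, edgeR adjusted p = 0.816). In D vs C this was a rise of 0.52 on the log2 scale, or 1.44-fold (SE 0.10, edgeR adjusted p = 0.0383, exact permutation p = 0.1, the lowest possible with 3 libraries a side). It was the 1 gene of the 9 tested that passed in D vs C, where 1.23% of all tested genes passed, 78 higher and 116 lower (199 and 89 when scaled by library size alone). In DI vs I the log2 fold change was 0.29 (1.22-fold, SE 0.10, edgeR adjusted p = 0.270), again with no overlap between the groups (8.17% of all tested genes were separated upward). The difference between these 2 effects was not significant (interaction −0.23, SE 0.14, edgeR adjusted p = 1).

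Over both doxycycline groups ARID1B rose by 0.41 on the log2 scale, or 1.33-fold (SE 0.072, edgeR adjusted p = 0.00899), and was the 1 of 9 tested genes that passed, where 7.68% of all tested genes passed, 579 higher and 637 lower (1250 and 431 when scaled by library size alone). The replicates ran in parallel, since the log2 ratios of same-numbered D and C libraries were 0.52, 0.53 and 0.52 and those of DI and I libraries were 0.24, 0.28 and 0.35. With the replicate block the edgeR adjusted p fell to 0.00104 over both groups, where 29% of all genes passed. In D vs C it fell to 0.00447, where 13.9% passed. The D vs C call is narrow. It was lost when any 1 library other than D replicate 3 or DI replicate 2 was left out (edgeR adjusted p up to 0.174). It was also lost without the filter (0.0812) and with the 6 libraries of C and D alone (0.198). Fewer of all tested genes passed in these fits as well. The share was 0.259% to 1.21% with 1 library left out, 0.447% without the filter and 0.108% with the 6 libraries. The call over both doxycycline groups held in 12 of 12 fits with 1 library left out, with log2 fold changes from 0.37 to 0.45. In those fits 3.86% to 8.42% of all tested genes passed over both groups.

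**Figure D2:**
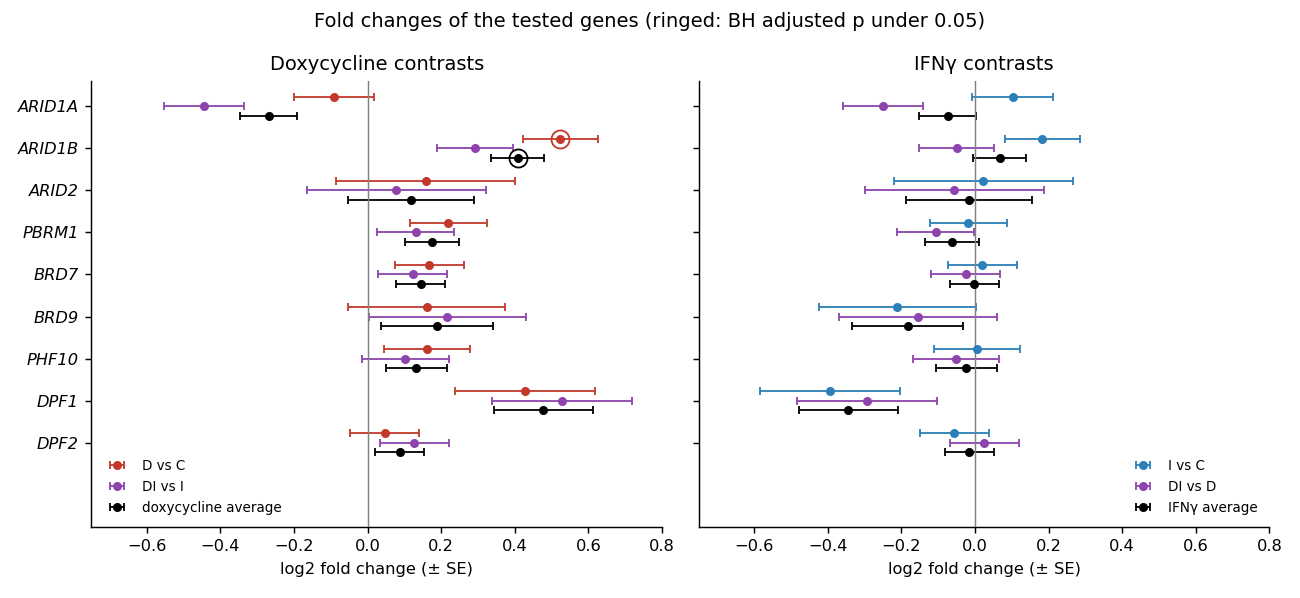
Log2 fold changes (horizontal axes, ± SE) of the 9 tested genes for the doxycycline contrasts (left) and the IFNγ contrasts (right), from the edgeR model of all 12 libraries. Rings mark adjusted p under 0.05 and surround only ARID1B, in D vs C (0.52) and over both doxycycline groups (0.41).

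The balance of the ARID1 pair was compared per kilobase, as the level of ARID1B divided by that of ARID1A in the same library. This ratio was 0.571, 0.589 and 0.569 in the C libraries and 0.604, 0.605 and 0.620 in the I libraries. It was 0.820, 0.998 and 0.847 in the D libraries and 0.905, 1.12 and 1.03 in the DI libraries. ARID1B supplied a mean of 36.6% ± 0.455 (SD, n = 3) of the pair's mRNA in C and 37.9% ± 0.343 in I, against 47.0% ± 2.63 in D and 50.4% ± 2.67 in DI. The sum of both genes was 30.1 to 36.02 CPM per kb in C, 35.9 to 37.9 in I, 34.1 to 41.7 in D and 32.8 to 35.0 in DI. Every DI library was below every I library in this sum, and the ranges of all other pairs of groups overlapped. The ratio is a description with no test of its own. Ratio, share and sum depend on the length used. With all annotated exons merged, the mean levels in C were 11.5 CPM per kb for ARID1A and 2.97 for ARID1B. Another length changes the ratio of every library by the same factor.

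**Figure D3:**
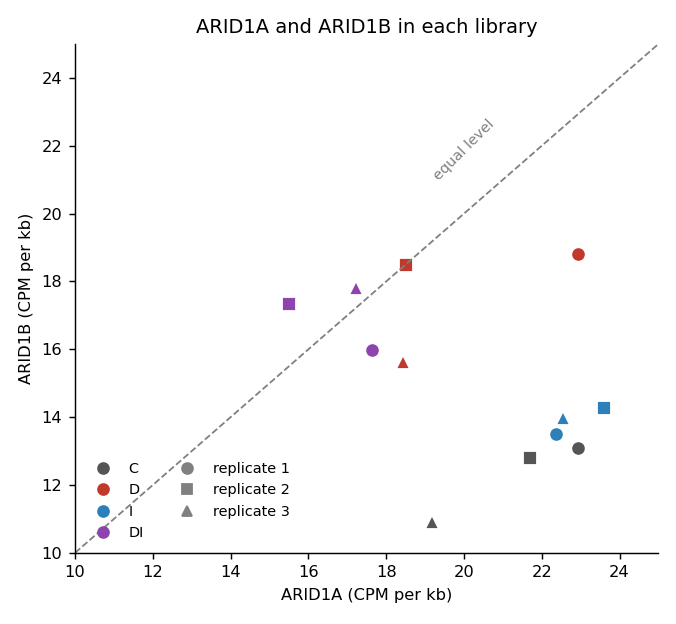
Level of ARID1B (vertical axis) against ARID1A (horizontal axis), both in CPM per kb of longest coding transcript, with 1 point per library and axes from 10 to 25. The 6 libraries without doxycycline lie well under the line of equal level (ratios 0.569 to 0.620), and the 6 with doxycycline lie near it (0.820 to 1.12). The place of all points against this line depends on the length used.

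ARID2 (ENSG00000189079, chromosome 12, 45729665 to 45908040, plus strand) is the ARID subunit of PBAF. Its C libraries had 100.01, 117 and 73.6 CPM for replicates 1 to 3, and its D libraries had 133, 109 and 82.4. The I libraries had 116, 106 and 73.6 CPM, and the DI libraries had 121, 111 and 80.1. The groups overlapped, and replicate 3 was the lowest in 4 of 4 groups. Of the variance of the 12 values, 84.4% lay between replicate numbers and 5.43% between groups. The log2 fold change was 0.16 in D vs C (SE 0.24, edgeR adjusted p = 0.846), 0.08 in DI vs I (SE 0.24, adjusted p = 0.951) and 0.12 over both doxycycline groups (SE 0.17, adjusted p = 0.737). The SE was more than double that of ARID1B, and the sign in D vs C turned when C replicate 3 or D replicate 1 was left out.

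BRD9 (ENSG00000028310, chromosome 5, 850291 to 892824, minus strand), the bromodomain subunit of the noncanonical complex, had the same layout. Its replicates 1 to 3 were at 65.4, 62.2 and 43.3 CPM in C and at 72.8, 66.6 and 51.6 CPM in D. They were at 56.7, 54.8 and 36.3 CPM in I and at 67.1, 52.7 and 51.9 CPM in DI. Replicate 3 was again the lowest in 4 of 4 groups, with 65.4% of the variance between numbers and 25.4% between groups. Across the 12 libraries the log2 levels of BRD9 and ARID2 correlated at r = 0.844, a description over libraries that share groups and replicate numbers. BRD9 did not pass over both doxycycline groups (log2 fold change 0.19, SE 0.15, edgeR adjusted p = 0.501).

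**Figure D4:**
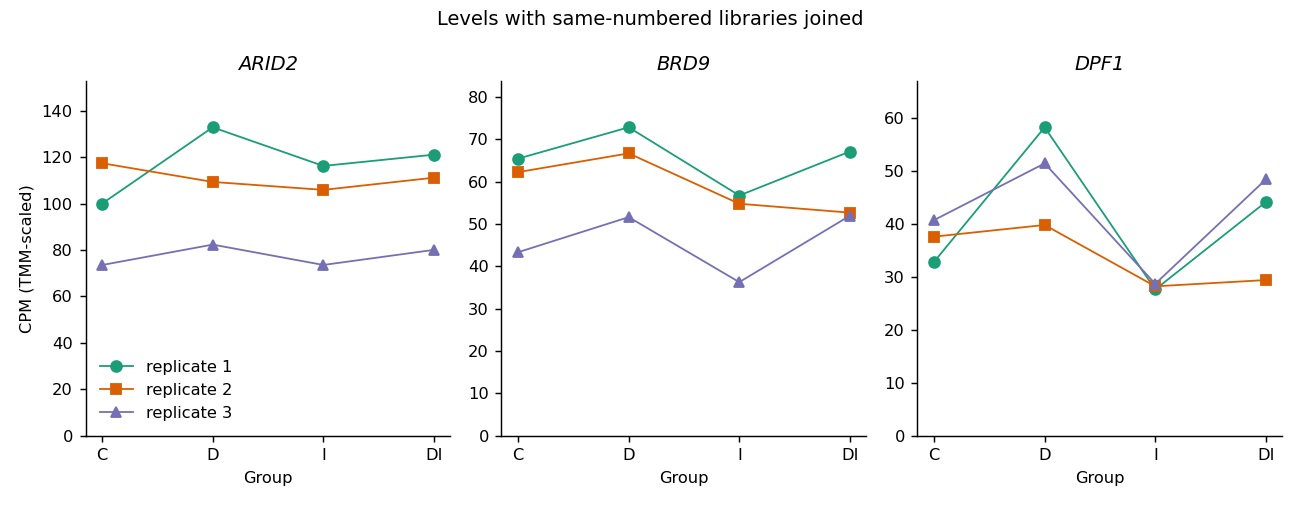
Levels in CPM (vertical axes, from 0) of ARID2, BRD9 and DPF1 in the 4 groups, with lines joining libraries that carry the same replicate number. For ARID2 and BRD9 replicate 3 is the lowest in 4 of 4 groups, and for DPF1 each line is higher in D than in C and in DI than in I.

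None of the other PBAF subunits passed in the model without a block. PBRM1, the polybromo subunit that reads acetylated histones, was at 112 to 122 CPM in C and 125 to 160 CPM in D, with no overlap, and at 114 to 119 CPM in I and 118 to 134 CPM in DI. Such separation upward in D vs C was seen for 10.1% of all tested genes. Over both doxycycline groups its log2 fold change was 0.18 (SE 0.074, edgeR adjusted p = 0.180, and 0.0484 with the replicate block, where 29% of all tested genes passed). D replicate 1, at 160 CPM, was the highest of the 12, and without it the value was 0.11.

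BRD7, a bromodomain subunit specific to PBAF, was at 118 to 128 CPM in C, 121 to 134 in I, 127 to 147 in D and 125 to 146 in DI. Its groups overlapped, but each library with doxycycline was above the same-numbered library without it in 6 of 6 pairs, by 0.04 to 0.27 on the log2 scale. The share of all tested genes with such an order was not counted. Over both groups the log2 fold change was 0.14 (SE 0.066, edgeR adjusted p = 0.218). With the replicate block the edgeR adjusted p was 0.0470, where 29% of all tested genes passed. BRD7 counts carry a limit, since ADCY7 on the opposite strand overlaps 42.3% of its annotated exon bases and the strand setting of the counting is not given in the sources used here. ADCY7 had 5509 counts over all libraries beside 30089 for BRD7, and its log2 fold change over both doxycycline groups was −0.18 (SE 0.13, edgeR adjusted p = 0.470).

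PHF10, the PHD-finger subunit of PBAF in dividing progenitors, was at 124 to 163 CPM in C, 127 to 151 in I, 144 to 163 in D and 142 to 158 in DI, with overlap in both doxycycline contrasts. Its log2 fold change over both groups was 0.13 (SE 0.083, edgeR adjusted p = 0.371). Shorter overlaps with other genes were annotated for PHF10 (C6orf120, 184 bases), PBRM1 (SMIM4, 146 bases) and BRD9 (TRIP13, 182 bases, and ZDHHC11, 222 bases). The processed copies BRD7P2 and BRD9P2 had 1.62% and 0.874% of the counts of their parents.

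DPF1 (ENSG00000011332, chromosome 19, 38211006 to 38229714, minus strand) is the double-PHD-finger protein of neuronal BAF, which reads acylated histone H3. Its C libraries had 32.9, 37.6 and 40.8 CPM for replicates 1 to 3, and its D libraries had 58.3, 39.8 and 51.5. The I libraries had 27.7, 28.3 and 28.7 CPM, and the DI libraries had 44.2, 29.4 and 48.5. D and C overlapped because D replicate 2 lay within the control range, while DI and I did not overlap, a separation upward seen for 8.17% of all tested genes. Replicate 2 gave the smallest ratios, 0.08 for D over C and 0.06 for DI over I on the log2 scale, and the other numbers gave 0.34 to 0.83 and 0.68 to 0.75. The log2 fold change was 0.43 in D vs C (SE 0.19, edgeR adjusted p = 0.342), 0.53 in DI vs I (SE 0.19, adjusted p = 0.279) and 0.48, or 1.39-fold, over both groups (SE 0.13, adjusted p = 0.0551). The last value was the nearest to the threshold among genes that did not pass. It was below the threshold with the replicate block (edgeR adjusted p = 0.0105, where 29% of all tested genes passed) and by DESeq2 (0.0120, 14.1%). With edgeR it was also below with library size alone (0.0214, 10.6%), without D replicate 2 (0.0377, 6.31%) and without DI replicate 2 (0.0144, 8.42%).

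DPF2, the broadly expressed paralog, was at 122 to 130 CPM in C, 118 to 123 in I, 119 to 138 in D and 119 to 146 in DI. The groups overlapped, and its log2 fold change over both doxycycline groups was 0.09 (SE 0.067, edgeR adjusted p = 0.480). DPF3 (chromosome 14, 72619296 to 72894116, minus strand) had 0 to 8 counts per library and 46 in all, and 4 of the 4 groups included libraries at or under the floor of 3 counts, so no fold is given. Per kilobase DPF1 made up 26.0% ± 2.27 (SD, n = 3) of the 3 DPF genes in C, 21.77% ± 0.033 in I, 31.4% ± 5.05 in D and 26.9% ± 6.59 in DI. The remainder was almost wholly DPF2. These shares also depend on the length used.

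Of the 9 tested genes, 1 was called over both doxycycline groups in the model without a block. The replicate block called 5 (ARID1A, ARID1B, DPF1, PBRM1 and BRD7), where 29% of all tested genes were called. Scaling by library size alone called 4 (ARID1B, DPF1, PBRM1 and BRD7), where 10.6% were called, and DESeq2 called 3 (ARID1A, ARID1B and DPF1), where 14.1% were called.

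No gene of the 9 passed with IFNγ in the model without a block. In I vs C the count was 0, against 2.21% of all tested genes, and in DI vs D it was 0, against 1.72%. Over both IFNγ groups (I and DI averaged, less C and D averaged) it was also 0, where 3.81% of all genes passed. At an unadjusted p under 0.05 the counts were 0 in I vs C, 1 in DI vs D (ARID1A) and 1 over both groups (DPF1), where 8%, 6.24% and 11.7% of all tested genes were under it. DESeq2 called none of the 9 in these contrasts, where it called 3.53%, 2.79% and 5.91% of all tested genes. DPF1 was the gene with the largest shift, and every I library (27.7 to 28.7 CPM) was below every C library (32.9 to 40.8), a separation in the lower direction seen for 6.24% of all tested genes, at a log2 fold change of −0.40 in I vs C (SE 0.19, edgeR adjusted p = 0.683, exact permutation p = 0.1). DI was below D in 3 of 3 same-numbered pairs, with a log2 fold change of −0.29 (SE 0.19, adjusted p = 1). Over both IFNγ groups DPF1 was at −0.34 (SE 0.13, edgeR adjusted p = 0.302), and 6 of 6 same-numbered pairs were lower with IFNγ, by 0.09 to 0.51 on the log2 scale. How many of all tested genes had such an order was not counted.

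A replicate block within each doxycycline arm, which pairs I with C and DI with D by number, gave lower p-values for these contrasts. With it DPF1 passed in I vs C (edgeR adjusted p = 0.00555, where 14.6% of all genes passed), in DI vs D (0.0259, where 11.2% passed) and over both IFNγ groups (0.000431, where 22.8% passed). ARID1A also passed in DI vs D (log2 fold change −0.25, edgeR adjusted p = 0.0271, against 0.747 without a block), and every DI library lay below every D library, which was the case for 3.78% of all tested genes in that direction. BRD9 passed over both IFNγ groups (edgeR adjusted p = 0.0198) at −0.18.

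Whether the doxycycline effect differed with IFNγ was tested as an interaction. No gene of the 15828 passed (edgeR), with 99 at an unadjusted p under 0.05, while DESeq2 called 2 (IL18BP and RIGI) and the block within each arm called 4 (those, SAMHD1 and FN1). These genes were chosen after the values were seen, and none is a SWI/SNF subunit. ARID1A had an interaction of −0.35 (SE 0.15, unadjusted p = 0.0437, edgeR adjusted p = 1), the lowest unadjusted p of the 9. For the other 8 the interaction ran from −0.23 to 0.10.

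Fold changes with doxycycline also followed transcript length across all genes. Among 13493 tested genes with a coding transcript, the median log2 fold change in D vs C rose from −0.20 for genes whose longest coding transcript is under 1 kb to 0.18 for the 1195 genes over 8 kb, of which 70.5% were above 0 and 3.43% were called higher. In DI vs I the medians ran from −0.09 to 0.06. ARID1A, ARID1B and ARID2, with longest coding transcripts of 8583, 10813 and 8642 bases, all belong to the class over 8 kb. In D vs C, 12.9% of that class had a larger log2 fold change than ARID1B, and 21.76% had a smaller one than ARID1A. Over both doxycycline groups 10.8% of the class was called higher, against 3.66% of all genes, and 13.4% of it lay above ARID1B and 13.1% below ARID1A. In DI vs I 8.45% of the class lay below ARID1A. The shorter DPF1, with 2356 bases, had 5.85% of the 5176 genes of its own class above it over both groups. The part of transcript length in the ARID1B result was not tested.

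**Figure D5:**
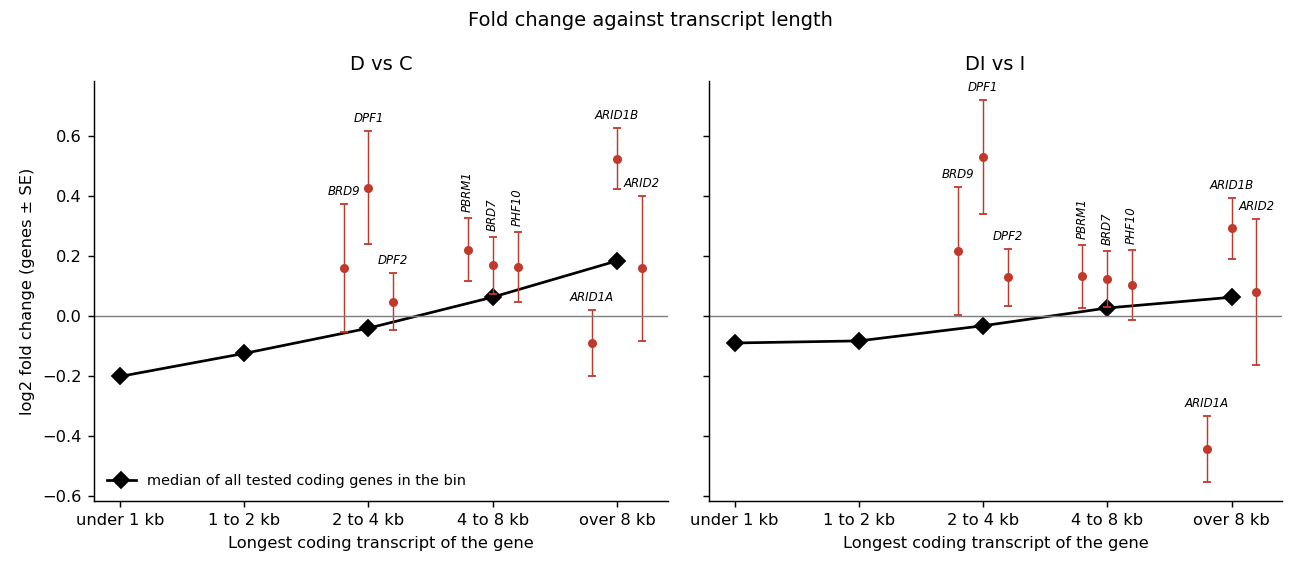
Log2 fold change (vertical axes) against the length class of the longest coding transcript (horizontal axes) for D vs C (left) and DI vs I (right). Black diamonds are medians of all tested coding genes in the class, which rise from −0.20 to 0.18 in D vs C, and red points are the 9 tested genes ± SE, with ARID1B above and ARID1A below the median of the class over 8 kb in both panels.

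The common and complex-specific SWI/SNF subunits outside the 10 genes were followed as a list of 19, all tested. Over both doxycycline groups 2 were higher, 1 was lower and 16 did not pass, where 3.66% of all tested genes were higher and 4.02% lower, with a median log2 fold change of 0.08 beside 0.00 over all tested genes. SMARCA4, the BRG1 ATPase, was at 609 ± 18.8 CPM (SD, n = 3) in C, 613 ± 20.6 in I, 722 ± 51.3 in D and 692 ± 21.21 in DI (log2 fold change over both groups 0.21, edgeR adjusted p = 0.0473). BICRA, a subunit of the BRD9-containing complex, was at 23.6 ± 3.40 CPM in C, 24.5 ± 2.00 in I, 32.2 ± 1.88 in D and 29.2 ± 1.56 in DI (0.35, adjusted p = 0.0401). The calls of SMARCA4 and BICRA are narrow: both were lost without the filter, SMARCA4 was lost when any 1 library was left out, and BICRA was lost when any 1 library other than C replicate 2 was left out. Of all tested genes 7.68% were called in the main fit, 2.83% without the filter and 3.86% to 8.42% with 1 library left out. ACTL6B, the neuronal actin-related subunit, fell over both doxycycline groups, with 53.4 ± 8.39 CPM in C, 57.5 ± 10.6 in I, 31.5 ± 3.75 in D and 33.5 ± 1.76 in DI (−0.77, edgeR adjusted p = 0.00404), and it passed in 12 of 12 fits with 1 library left out. None of the 19 passed in D vs C or in DI vs I alone, where 1.23% and 0.67% of all tested genes passed. For ACTL6B the edgeR adjusted p was 0.0541 and 0.0615 in these. Of the other subunits typical of the neuronal complex, DPF1 had a log2 fold change of 0.48 and SS18L1 one of −0.18 (SE 0.10, edgeR adjusted p = 0.331), and neither passed. Mature neuron markers summed to 1116 to 1385 CPM in C, 1308 to 1600 in I, 878 to 1090 in D and 978 to 1234 in DI, with 1 of the 7 tested lower over both doxycycline groups, and their part in these results was not tested.

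SMARCD3 passed with IFNγ. It was at 8.84 ± 1.45 CPM in C, 20.44 ± 0.643 in I, 11.4 ± 3.85 in D and 21.7 ± 4.88 in DI, and rose by 1.07 on the log2 scale over both IFNγ groups (SE 0.17, edgeR adjusted p = 0.00381). It was also called in 12 of 12 fits with 1 library left out. In the separate contrasts it passed in I vs C (edgeR adjusted p = 0.0260) and not in DI vs D (0.133). The other 18 subunits of the list did not pass over the IFNγ groups in this model, where 3.41% of all tested genes were higher and 0.398% lower. The replicate block within each doxycycline arm also called BCL7A, SMARCA2, SMARCC1 and SS18L1 lower, where 10.3% of all tested genes were lower, and DESeq2 also called SMARCC1 lower, where 1.2% were.

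Related families were counted in the same way over both doxycycline groups, where 3.66% of all tested genes were higher and 4.02% lower. Of 11 genes with an ARID domain outside SWI/SNF, 3 were higher and none lower: ARID5B (0.90, edgeR adjusted p = 0.0156), the Polycomb partner JARID2 (0.32, 0.0175) and the histone demethylase KDM5A (0.31, 0.0419), at a list median of 0.07. Of 12 other double-PHD-finger and bromodomain readers, 4 were higher and none lower, including the acetyltransferases KAT6A (0.40, edgeR adjusted p = 0.0227) and KAT6B (0.40, 0.0313) and their scaffold BRPF1 (0.33, 0.0419), at a list median of 0.32. Of 14 ATPases of the ISWI, CHD and INO80 families 6 were higher and none lower, led by INO80 (0.57, edgeR adjusted p = 0.00581), CHD2 (0.46, 0.00996), CHD7 (0.45, 0.0147) and EP400 (0.45, 0.0184), at a list median of 0.36. The median over all tested genes was 0.00. By length of the longest coding transcript, 10.8% of genes over 8 kb were called higher. The share was 4.94% at 4 to 8 kb and 2.45% at 2 to 4 kb. The part of transcript length in these counts was not tested. With 1 library left out the counts of higher genes ranged from 1 to 3, from 1 to 4 and from 4 to 5. In those fits 3.86% to 8.42% of all tested genes were called in either direction. With the replicate block the counts were 4, 9 and 9 higher and 0, 1 and 1 lower, where 13.3% of all tested genes were higher and 15.8% lower. With IFNγ, CHD5 passed, with 0.182 ± 0.220 CPM in C and 11.9 ± 4.37 in I, and with 0.339 ± 0.311 in D and 9.98 ± 2.89 in DI (edgeR adjusted p = 9.15e-05 over both IFNγ groups).

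Genes whose level ran most like that of ARID1A were ranked by Pearson correlation of log2 CPM over the 12 libraries, among 10136 tested genes with a mean of at least 10 CPM. The highest were VAV2 (r = 0.88), RSU1 (0.85), EIF5AL1 (0.85), STX6 (0.84) and ACTN1 (0.84). The most opposite were WASF3 (−0.87), SCAMP5 (−0.85), KAZALD1 (−0.83), MTG1 (−0.82) and SLC31A1 (−0.82). The 12 libraries share groups and replicate numbers, so these values describe likeness of pattern only. ARID1B itself correlated with ARID1A at −0.41 and PBRM1 with DPF1 at 0.80.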

How the data were processed

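RNA-sequencing data of 12 libraries were analysed from the counts per gene deposited by the authors, whole numbers for 43769 genes, of which 17165 had no count. The aligner, counting tool and genome build are not given in the sources used here. Another 18 per-sample columns and the authors' comparison tables, which hold their fold changes and p-values (DESeq2, per the submitters' processing notes), were not used. Gene identifiers, all found in GENCODE 29 (GRCh38), gave positions and lengths.

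Counts were scaled by TMM, filtered with filterByExpr (minimum count 10) and tested in 1 two-sided edgeR quasi-likelihood model of the 4 groups over all 12 libraries (edgeR 4.0.16, limma 3.58.1, R 4.3.3) with Benjamini-Hochberg adjustment over 15828 genes. A gene with an adjusted p under 0.05 was called. CPM are counts relative to the library size after TMM. Exact permutation tests compared 3 libraries with 3. Alternatives were DESeq2 1.42.0, other scalings, no filter, only the 2 groups compared, replicate blocks and leaving out each library. The code was tested on simulated data.

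The labels give replicate numbers, and these pair the libraries. With group means taken out, same-numbered libraries of different groups correlated at 0.314 to 0.856 (18 pairs) and differently numbered libraries of different groups at −0.679 to 0.199 (36 pairs). Chi-square per gene between replicates ran from 18.6 to 82.2, far above counting noise, so none is a repeat sequencing of another replicate's library. This does not show whether the replicates were separate cultures.

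The genes, the lists and the tests were chosen with earlier results of these data known. All 10 genes are named, plus up to 4 called genes per list and contrast with the smallest p, and the 5 genes most like and most unlike ARID1A. Other genes are named where they overlap or check these. Single-gene results of some list members are not reported here. Floors cover counting error only. Figures used Python 3.11.15.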

Additional observations from a re-analysis of the deposited data

How the results depend on the processing

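Brackets in this paragraph give the share of all tested genes called in the same fit. In the model without a replicate block, the number of the 9 tested genes called was 1 in D vs C (1.23%), 0 in DI vs I (0.67%) and 1 over both doxycycline groups (7.68%). In D vs C it was 0 without the filter (0.447%) and with only the libraries of the 2 groups (0.108%). In DI vs I it was 1 by DESeq2 (4.01%) and 1 with the replicate block (10.5%). Over both doxycycline groups it was 4 with library size alone (10.6%), 3 by DESeq2 (14.1%) and 5 with the replicate block (29%). With the replicate block within each doxycycline arm it was 1 in I vs C (14.6%), 2 in DI vs D (11.2%) and 2 over both IFNγ groups (22.8%). Leaving out 1 library gave 0 to 1 in D vs C (0.259% to 1.21%) and 1 to 2 over both doxycycline groups (3.86% to 8.42%).

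ARID1A in DI vs I was −0.44 by DESeq2 and −0.45 with the replicate block, and over both doxycycline groups −0.27 by either, now past the threshold, and it ranged from −0.33 to −0.24 with 1 library left out. Over the 9 genes and 7 contrasts, 23 of 63 log2 fold changes had another sign in at least 1 fit with 1 library left out (55 of 756 values), and 5 values had another sign under another scaling or without the filter, none of them called. Among the doxycycline contrasts of the 9 genes and all contrasts of ARID1A, ARID1B and DPF1, these were ARID2 in D vs C (−0.019 to 0.32) and DI vs I (−0.078 to 0.23), BRD9 (−0.0043 to 0.29) and DPF2 (−0.0062 to 0.10) in D vs C, ARID1B in DI vs D (−0.13 to 9.3e-05) and the interaction of DPF1 (−0.044 to 0.29). The cause was not tested. With C replicate 3 left out ARID2 and BRD9 lost the lowest library of their C group. Depth limits DPF3, whose counts lie near the floor in every group. The replicate block changed no other call among the 9 genes. Of the 19 other SWI/SNF subunits it called 3 higher and 2 lower over both doxycycline groups, near the share over all tested genes (29% called, 13.3% higher and 15.8% lower).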
